A study of Mus musculus with 8 samples.

Results

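The B cell identity and receptor signalling genes are a list of 33 genes that B lymphocytes use to build and tune their antigen receptor and to keep their identity. They were followed here as a B cell signal in RNA of mouse peritoneal macrophages. A row of the array named for that gene alone was found for 32 of the 33 listed genes, among 19938 genes measured in all, and none of the 32 had a further row of that kind. Cd38 was not analysed here. The cells were wild-type macrophages of C57/Bl6 mice, labelled as peritoneal macrophages obtained by lavage and kept overnight in culture, and 10 mice had been pooled. The 4 groups were Basal 6h and Basal 24h, which were left untreated for 6 h or 24 h, and HRG 6h and HRG 24h, which were given HRG, the plasma protein histidine-rich glycoprotein in recombinant form, at 1 µg/ml for the same times. Each group held 2 samples, each on its own array, for 8 arrays. The labels name no age, no step that removes other cells and no separate handling of the duplicates. The p-values thus measure only the spread between samples of 1 pool, which may be technical.

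B cells carry an antigen receptor made of membrane immunoglobulin and the signalling chains CD79A and CD79B, whose phosphorylated tails recruit kinases and adaptors. A set of transcription factors, among them EBF1 and PAX5, holds the B cell programme in place, and inhibitory receptors such as CD22 and CD72 raise the threshold of the response. The peritoneal cavity is a known home of B cells, including the B-1 type, next to its large resident macrophages, so peritoneal lavage yields both. Several of the 32 genes are not exclusive to B cells: Blnk, Cd72, Pou2f2 and Rasgrp3 are also made by macrophages, Btla, Cd5, Bach2, Cxcr5 and Fcmr by T cells, and Spib by some dendritic cells. The other 22 were taken as B cell genes from textbook knowledge.

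Values are log2 levels as deposited, and a difference of 1 is a doubling. Because rows differ in how well they bind their target, levels are compared between arrays for a gene and not between genes. As a reference for background, the rows of 1205 olfactory and vomeronasal receptor genes were taken, and a gene was counted as above background on an array when it exceeded the 95th percentile of those rows there (between 6.55 and 6.73). By that measure 27 of the 32 genes were above background on all 8 arrays and 5 on some of them (Btla, Cr2, Cxcr5, Fcer2a and Jchain). All 12 macrophage markers examined, among them Adgre1, Csf1r, Cd68 and Lyz2, were above background on all 8 arrays. In these bulk samples, fewer B cells and less RNA of these genes per cell cannot be told apart.

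The B cell signal was highest in the basal samples at 6 h and lowest in the basal samples at 24 h. For each array, the median over the 32 genes of the difference from each gene's own mean over 8 arrays was 0.34 and 0.28 in Basal 6h, 0.058 and 0.03 in HRG 6h, -0.34 and -0.47 in Basal 24h, and 0.15 and -0.067 in HRG 24h. Both untreated 24 h samples thus stood below all other arrays, both untreated 6 h samples stood above them, and the HRG samples of both times lay between. Over the 22 genes taken as B cell genes alone, the same medians were 0.33 and 0.25, 0.033 and 0.00093, -0.33 and -0.45, and 0.17 and -0.053 in that order of groups. By group means, 28 of the 32 genes were lowest in Basal 24h, where 19.2% of all genes had their lowest group, and 23 were highest in Basal 6h, against 24.4% of all genes.

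**Figure D1:**
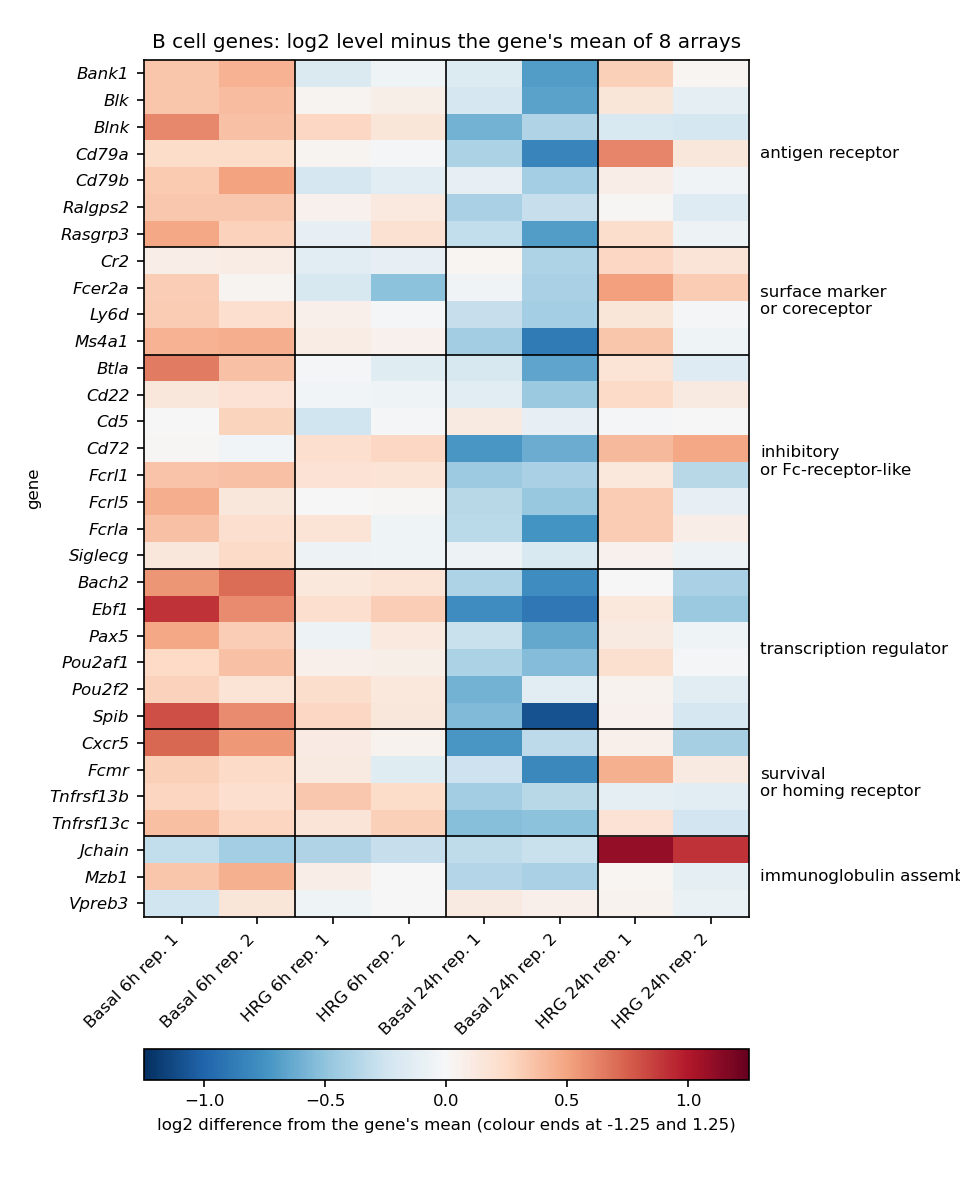
Log2 level of each of the 32 measured B cell genes (rows, by role) on each of the 8 arrays (columns), as the difference from that gene's mean over the arrays; red is above and blue below the mean. The Basal 24h columns are the bluest for 28 genes by group mean, while Jchain is red in the HRG 24h columns alone and Vpreb3 and Cd5 vary little.

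The count of genes that changed differed between the 5 comparisons made. A gene was called when its limma p, adjusted by Benjamini-Hochberg over all 19938 genes, was under 0.05, and "rose" and "fell" are used for called genes. Between 6 h and 24 h without HRG, 26 of the 32 genes fell and 0 rose, where 5.48% of all genes fell and 3.80% rose. Between 6 h and 24 h with HRG, 2 rose and 2 fell, against 4.41% and 2.87% of all genes. HRG against basal at 24 h gave 12 that rose and 0 that fell, against 2.43% and 1.05% of all genes. HRG against basal at 6 h gave 1 that fell and 0 that rose, against 0.818% and 0.431% of all genes. The difference of the HRG effects, 24 h minus 6 h, was above 0 and called for 16 genes and below 0 and called for 0, against 1.02% and 0.451% of all genes. An unadjusted p under 0.05 in either direction was reached by 28, 9, 28, 19 and 28 of the 32 genes in these comparisons, in the order given. Over all 19938 genes the same counts were 4061, 3766, 2531, 2194 and 2197. Cd5, Cr2, Siglecg and Vpreb3 were called in none of the 5 comparisons.

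The promoters of some of these genes are shown because the list holds its own regulators: POU2F2 and its partner POU2AF1 bind the octamer, EBF1 binds an EBF site and SPIB binds an ETS site. RefSeq promoter entries of build GRCm38.p6 matched 26 of the 32 genes with 32 start sites, and the 250 bases before each start were searched on both strands for ATTTGCAT (octamer), TCCC, any 2 bases, then GGGA (EBF) and GAGGAAG (ETS). In the sequences, capitals mark a match. Cd79a and Jchain, without a match, are shown as the receptor chain with the largest rise with HRG at 24 h and as the gene above background in HRG 24h alone, on 1 array.
Blnk: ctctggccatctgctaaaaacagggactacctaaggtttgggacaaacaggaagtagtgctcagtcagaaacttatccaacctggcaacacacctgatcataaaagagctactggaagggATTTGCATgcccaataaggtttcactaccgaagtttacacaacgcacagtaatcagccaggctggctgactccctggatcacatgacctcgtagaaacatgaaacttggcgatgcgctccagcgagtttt
Cd22: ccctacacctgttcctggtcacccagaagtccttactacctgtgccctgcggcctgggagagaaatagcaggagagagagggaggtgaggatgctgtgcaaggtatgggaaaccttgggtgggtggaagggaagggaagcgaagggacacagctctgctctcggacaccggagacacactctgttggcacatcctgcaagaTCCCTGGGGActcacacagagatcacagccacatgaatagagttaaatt
Cd72: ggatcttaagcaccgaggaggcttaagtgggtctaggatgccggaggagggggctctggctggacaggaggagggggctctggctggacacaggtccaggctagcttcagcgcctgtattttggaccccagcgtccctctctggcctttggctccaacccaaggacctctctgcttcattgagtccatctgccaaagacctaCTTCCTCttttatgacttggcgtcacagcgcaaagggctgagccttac
Cd79a: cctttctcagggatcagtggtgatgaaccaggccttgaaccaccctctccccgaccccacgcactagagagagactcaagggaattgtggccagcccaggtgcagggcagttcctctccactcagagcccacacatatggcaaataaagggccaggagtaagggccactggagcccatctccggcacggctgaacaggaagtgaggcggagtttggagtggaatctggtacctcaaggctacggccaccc
Jchain: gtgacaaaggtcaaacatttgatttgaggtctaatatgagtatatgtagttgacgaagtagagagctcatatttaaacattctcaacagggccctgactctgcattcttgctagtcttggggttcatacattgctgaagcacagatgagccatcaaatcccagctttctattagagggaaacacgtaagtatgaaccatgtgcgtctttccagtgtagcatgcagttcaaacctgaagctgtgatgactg
These lie at chr19:40994222-40994471, minus strand, chr7:30879029-30879278, minus strand, chr4:43454627-43454876, minus strand, chr7:24897247-24897496, plus strand and chr5:88527898-88528147, minus strand, in that order, and each ends at the base before the annotated start of its gene. The match in Blnk is an octamer beginning 130 bases before the start, the match in Cd22 an EBF site beginning 49 bases before it, and the match in Cd72 an ETS site on the opposite strand beginning 48 bases before it. The octamer was found in 2 of the 32 member promoters (Blnk and Vpreb3) and in 1.60% of all 32851 promoters. The EBF site was found in 1 (Cd22) and in 0.779% of all. The ETS site was found in 6 (Btla, Cd5, Cd72, Fcrl1, Rasgrp3 and Siglecg) and in 10.6% of all. Most member promoters held none of these exact letters in this window, including those of Cd79a, Ebf1 and Pax5.

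Both signalling chains of the antigen receptor fell over time without HRG, and they differed in which HRG comparison passed the test. Cd79a, which pairs with CD79B to carry the receptor's signal, had log2 levels of 9.70 and 9.71 in Basal 6h, 9.51 and 9.46 in HRG 6h, 9.08 and 8.65 in Basal 24h and 10.09 and 9.62 in HRG 24h. Both untreated 24 h samples were below all others, and the HRG samples at 24 h lay above them by more than the gap between replicates. Cd79a fell by 0.84 ± 0.16 over time without HRG (adjusted p = 0.0054). It was 1.98-fold higher with HRG at 24 h (0.98 ± 0.16, adjusted p = 0.0045). Its HRG effect differed between the times by 1.20 ± 0.22, adjusted p = 0.025. Cd79b, the other chain, had 10.52 and 10.69 in Basal 6h, 9.98 and 10.06 in HRG 6h, 10.09 and 9.77 in Basal 24h and 10.28 and 10.15 in HRG 24h. It was the member that fell with HRG at 6 h (-0.59 ± 0.12, adjusted p = 0.038), with both HRG samples below both basal ones. Cd79b also fell over time without HRG (-0.68 ± 0.12, adjusted p = 0.0033), while its difference with HRG at 24 h was 0.29 ± 0.12 and did not pass (adjusted p = 0.32, 95% interval 0.027 to 0.55).

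The kinase and adaptors downstream of the receptor fell over time in untreated cells. With Cd79a and Cd79b, all 7 genes of the antigen receptor role were called there. Blk, a Src family kinase of B cells, had 8.09 and 8.13 in Basal 6h, 7.78 and 7.82 in HRG 6h, 7.54 and 7.08 in Basal 24h and 7.90 and 7.64 in HRG 24h. Bank1, a scaffold protein of the receptor pathway, had 8.98 and 9.06 in Basal 6h, 8.45 and 8.57 in HRG 6h, 8.46 and 7.93 in Basal 24h and 8.92 and 8.65 in HRG 24h. In both genes the second untreated 24 h sample was the lowest array. Blk fell by 0.80 ± 0.14 and Bank1 by 0.82 ± 0.15 without HRG, and neither passed for HRG against basal at 24 h (0.46 ± 0.14 and 0.59 ± 0.15). Blnk, the linker that couples the receptor to phospholipase C and that macrophages also make, had 11.46 and 11.22 in Basal 6h, 11.11 and 11.00 in HRG 6h, 10.26 and 10.48 in Basal 24h and 10.66 and 10.63 in HRG 24h. Its HRG samples at 24 h were below all 6 h samples, and it fell over time both without HRG (-0.97 ± 0.11, adjusted p = 0.00024) and with it (-0.41 ± 0.11, adjusted p = 0.048). Rasgrp3, a Ras exchange factor activated by diacylglycerol, had 8.74 and 8.54 in Basal 6h, 8.16 and 8.45 in HRG 6h, 7.95 and 7.55 in Basal 24h and 8.47 and 8.19 in HRG 24h. Ralgps2, an exchange factor for Ral GTPases, had 7.75 and 7.75 in Basal 6h, 7.47 and 7.53 in HRG 6h, 7.00 and 7.13 in Basal 24h and 7.42 and 7.25 in HRG 24h. Both followed the untreated fall, by 0.89 ± 0.15 and 0.69 ± 0.10, and the HRG samples at 24 h lay above the untreated ones without passing the test (adjusted p = 0.063 and 0.23).

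Of the 4 surface markers and coreceptors, 2 fell over time without HRG and 3 rose with HRG at 24 h. Ms4a1, which encodes CD20, had 9.52 and 9.54 in Basal 6h, 9.18 and 9.14 in HRG 6h, 8.65 and 8.20 in Basal 24h and 9.43 and 9.03 in HRG 24h. The untreated 24 h samples were the lowest arrays and the HRG samples at 24 h overlapped the HRG samples at 6 h. Ms4a1 fell 2.15-fold over time without HRG (-1.10 ± 0.15, adjusted p = 0.00074) and was 1.75-fold higher with HRG at 24 h (0.80 ± 0.15, adjusted p = 0.011). Its difference over time with HRG was 0.071 ± 0.15 (95% interval -0.26 to 0.40). Ly6d, a surface protein that marks early commitment to the B lineage, had 8.66 and 8.55 in Basal 6h, 8.41 and 8.33 in HRG 6h, 8.05 and 7.92 in Basal 24h and 8.50 and 8.32 in HRG 24h. It fell by 0.62 ± 0.10 without HRG and rose with HRG at 24 h by 0.42 ± 0.10, adjusted p = 0.044. Fcer2a, the low-affinity IgE receptor CD23 of follicular B cells, had 7.17 and 6.90 in Basal 6h, 6.66 and 6.35 in HRG 6h, 6.82 and 6.46 in Basal 24h and 7.37 and 7.18 in HRG 24h. Its HRG samples were below the basal ones at 6 h and above them at 24 h, and it rose over time with HRG (0.77 ± 0.15, adjusted p = 0.0081) and against basal at 24 h (0.64 ± 0.15, adjusted p = 0.037). Fcer2a was above background on 6 of 8 arrays. Cr2, the complement receptor CD21, lay between 6.20 and 6.84, above background on 3 arrays, and was called in no comparison.

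Of the 8 inhibitory and Fc-receptor-like genes, 6 fell over time without HRG and 3 rose with HRG at 24 h. Cd22, a sialic acid binding inhibitor of the receptor, had 8.44 and 8.48 in Basal 6h, 8.27 and 8.25 in HRG 6h, 8.16 and 7.83 in Basal 24h and 8.54 and 8.41 in HRG 24h. It fell by 0.47 ± 0.11 without HRG and rose with HRG at 24 h by 0.48 ± 0.11, adjusted p = 0.040, with both HRG samples at 24 h above both basal ones. Cd72, an inhibitory lectin that macrophages also make, had 10.71 and 10.66 in Basal 6h, 10.90 and 10.95 in HRG 6h, 9.97 and 10.07 in Basal 24h and 11.09 and 11.17 in HRG 24h. Its HRG samples were above the basal ones at both times, unlike those of the other 31 genes at 6 h, where no other member had both HRG samples above both basal ones. Cd72 rose 2.16-fold with HRG at 24 h (1.11 ± 0.093, adjusted p = 6.5e-05), and the difference at 6 h was 0.24 ± 0.093 and did not pass (adjusted p = 0.34). Btla, an inhibitory receptor of B and T cells, had 7.68 and 7.39 in Basal 6h, 7.01 and 6.88 in HRG 6h, 6.83 and 6.37 in Basal 24h and 7.20 and 6.86 in HRG 24h. It fell over time without HRG (-0.94 ± 0.16, adjusted p = 0.0027), with the second sample of Basal 24h not above background. Among the Fc-receptor-like genes, Fcrla, an intracellular member, had 8.19 and 8.03 in Basal 6h, 7.99 and 7.77 in HRG 6h, 7.49 and 7.08 in Basal 24h and 8.14 and 7.91 in HRG 24h. Fcrl1 had 7.90 and 7.91 in Basal 6h, 7.73 and 7.72 in HRG 6h, 7.09 and 7.14 in Basal 24h and 7.68 and 7.20 in HRG 24h. Fcrl5, which marks part of the innate-like B cells, had 8.34 and 8.03 in Basal 6h, 7.89 and 7.91 in HRG 6h, 7.54 and 7.41 in Basal 24h and 8.20 and 7.78 in HRG 24h. In all 3 genes the untreated samples at 24 h were below every other array. They fell over time without HRG, by 0.83 ± 0.14, 0.79 ± 0.13 and 0.71 ± 0.14, and of them Fcrla rose with HRG at 24 h (0.74 ± 0.14, adjusted p = 0.012). Siglecg, a sialic acid binding inhibitor prominent on B-1 cells, lay between 7.42 and 7.85, and Cd5, carried by T cells and by B-1a cells, between 7.55 and 8.07. Neither was called in any comparison: without HRG the difference over time was -0.31 ± 0.10 for Siglecg (95% interval -0.53 to -0.10) and -0.13 ± 0.12 for Cd5 (95% interval -0.40 to 0.14).

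Transcription regulators showed the deepest fall in untreated cells, with a median over the 6 genes of -1.03 beside -0.79 over all 32 and 0.028 over all genes. Ebf1, which sets up the B cell programme, had 9.31 and 9.0 in Basal 6h, 8.62 and 8.72 in HRG 6h, 7.63 and 7.52 in Basal 24h and 8.55 and 7.95 in HRG 24h. The untreated samples at 24 h were more than 1 log2 unit below those at 6 h, and the HRG samples at 24 h lay between. Ebf1 fell 2.99-fold (-1.58 ± 0.17, adjusted p = 0.00013) and rose with HRG at 24 h (0.67 ± 0.17, adjusted p = 0.049). Spib, an ETS factor of B cells and plasmacytoid dendritic cells, had 9.26 and 9.05 in Basal 6h, 8.71 and 8.60 in HRG 6h, 7.91 and 7.37 in Basal 24h and 8.51 and 8.24 in HRG 24h. The second untreated sample at 24 h was its lowest array. Spib fell 2.85-fold without HRG (-1.51 ± 0.16, adjusted p = 0.00013). It rose 1.67-fold with HRG at 24 h (0.74 ± 0.16, adjusted p = 0.024). Pax5, which keeps B cells in their lineage, had 9.0 and 8.81 in Basal 6h, 8.45 and 8.63 in HRG 6h, 8.23 and 7.87 in Basal 24h and 8.62 and 8.46 in HRG 24h. Pax5 fell by 0.86 ± 0.13 without HRG (adjusted p = 0.0014). Its difference with HRG at 24 h was 0.49 ± 0.13 and did not pass (adjusted p = 0.072). Pou2af1, the octamer coactivator, had 8.83 and 8.94 in Basal 6h, 8.64 and 8.65 in HRG 6h, 8.18 and 8.03 in Basal 24h and 8.77 and 8.55 in HRG 24h. It fell by 0.78 ± 0.11 over time without HRG and rose with HRG at 24 h (0.55 ± 0.11, adjusted p = 0.013). Bach2, a repressor that restrains plasma cell formation, had 9.21 and 9.36 in Basal 6h, 8.80 and 8.83 in HRG 6h, 8.27 and 7.89 in Basal 24h and 8.67 and 8.25 in HRG 24h. Pou2f2, an octamer factor that macrophages also make, had 9.74 and 9.62 in Basal 6h, 9.67 and 9.58 in HRG 6h, 8.86 and 9.32 in Basal 24h and 9.50 and 9.32 in HRG 24h. The HRG and untreated samples at 24 h overlapped for Bach2. For Pou2f2 they were apart only narrowly, by 9.320 in HRG 24h replicate 2 against 9.317 in Basal 24h replicate 2. Bach2 fell by 1.21 ± 0.15 and Pou2f2 by 0.59 ± 0.14 without HRG, and neither passed for HRG against basal at either time.

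Receptors for survival factors and homing fell over time without HRG in all 4 cases. Tnfrsf13c, the BAFF receptor that mature B cells need to survive, had 9.88 and 9.77 in Basal 6h, 9.67 and 9.80 in HRG 6h, 8.98 and 8.99 in Basal 24h and 9.68 and 9.26 in HRG 24h. Tnfrsf13b, which encodes TACI, a further receptor for BAFF and APRIL, had 8.95 and 8.90 in Basal 6h, 9.02 and 8.92 in HRG 6h, 8.25 and 8.34 in Basal 24h and 8.57 and 8.54 in HRG 24h. For both, the untreated samples at 24 h were below every other array. The 2 receptors fell by 0.84 ± 0.13 and 0.63 ± 0.093 without HRG, and Tnfrsf13b also fell over time with HRG (-0.41 ± 0.093, adjusted p = 0.019). Cxcr5, the receptor for the follicle chemokine CXCL13, had 7.67 and 7.50 in Basal 6h, 7.06 and 7.00 in HRG 6h, 6.23 and 6.63 in Basal 24h and 7.02 and 6.54 in HRG 24h. It fell over time without HRG (-1.16 ± 0.16, adjusted p = 0.00085). The first sample of Basal 24h and the second of HRG 24h were not above background, so the size of this fall is limited by background and no fold is given. Fcmr, the Fc receptor for IgM, had 9.25 and 9.19 in Basal 6h, 9.07 and 8.80 in HRG 6h, 8.69 and 8.15 in Basal 24h and 9.40 and 9.07 in HRG 24h. Fcmr fell by 0.80 ± 0.17 without HRG and was the gene of this role that rose with HRG at 24 h (0.81 ± 0.17, adjusted p = 0.018).

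The 3 genes of immunoglobulin assembly each took a different course. Jchain, which joins IgM and IgA into polymers and is made in antibody-secreting cells, had 5.40 and 5.28 in Basal 6h, 5.33 and 5.42 in HRG 6h, 5.39 and 5.43 in Basal 24h and 6.80 and 6.61 in HRG 24h. The 6 arrays outside HRG 24h lay within 5.28 to 5.43, under the background limit, and only the first HRG sample at 24 h was above that limit. Jchain rose with HRG at 24 h (adjusted p = 5.2e-05) and over time with HRG (adjusted p = 1.9e-05), and had no call over time without HRG (adjusted p = 0.78). Since the levels it is compared with are at background, no size of these changes is given and Jchain is not ranked by size against other genes. Its promoter is among those printed above. Mzb1, a chaperone of IgM in marginal zone and B-1 cells, had 8.73 and 8.83 in Basal 6h, 8.47 and 8.38 in HRG 6h, 8.02 and 7.97 in Basal 24h and 8.40 and 8.26 in HRG 24h. It fell over time without HRG (-0.78 ± 0.10, adjusted p = 0.00036). Vpreb3, a chaperone of receptor assembly in early B cells, had 6.74 and 7.15 in Basal 6h, 6.94 and 7.00 in HRG 6h, 7.10 and 7.06 in Basal 24h and 7.03 and 6.91 in HRG 24h. Vpreb3 was called in no comparison, and its untreated samples at 24 h lay within the range of those at 6 h.

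The comparison of 24 h with 6 h in untreated cells asked how the signal changed with time in culture. Over the 32 genes the differences ran from -1.58 ± 0.17 for Ebf1 to 0.13 ± 0.12 for Vpreb3, with a median of -0.79 against 0.028 over all genes. In 29 of the 32 both untreated samples at 24 h were below both at 6 h, a separation found in 21.7% of all genes, and in 0 of 32 were both above (23.5% of all genes). Of the 22 genes taken as B cell genes alone, 17 fell, with a median of -0.74. The 4 genes that macrophages also make fell by 0.97 ± 0.11 (Blnk), 0.66 ± 0.093 (Cd72), 0.59 ± 0.14 (Pou2f2) and 0.89 ± 0.15 (Rasgrp3). The count of 26 lay between 22 and 26 when single arrays were left out.

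The same comparison with HRG gave differences on both sides of 0. The median was 0.035 against -0.02 over all genes, with 19 genes above 0. Jchain and Fcer2a rose, and Blnk and Tnfrsf13b fell. Both HRG samples at 24 h were above both at 6 h for 10 of the 32 genes (22.6% of all genes) and below both for 8 (26.6% of all genes). The median was -0.090 without HRG 24h replicate 1. The count that rose was 1 without HRG 6h replicate 2 or without HRG 24h replicate 1, and the count that fell was 0 without HRG 6h replicate 1, HRG 6h replicate 2 or HRG 24h replicate 2. Without HRG 24h replicate 1, 2 genes fell, but they were Ebf1 and Fcrl1 in place of Blnk and Tnfrsf13b.

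**Figure D2:**
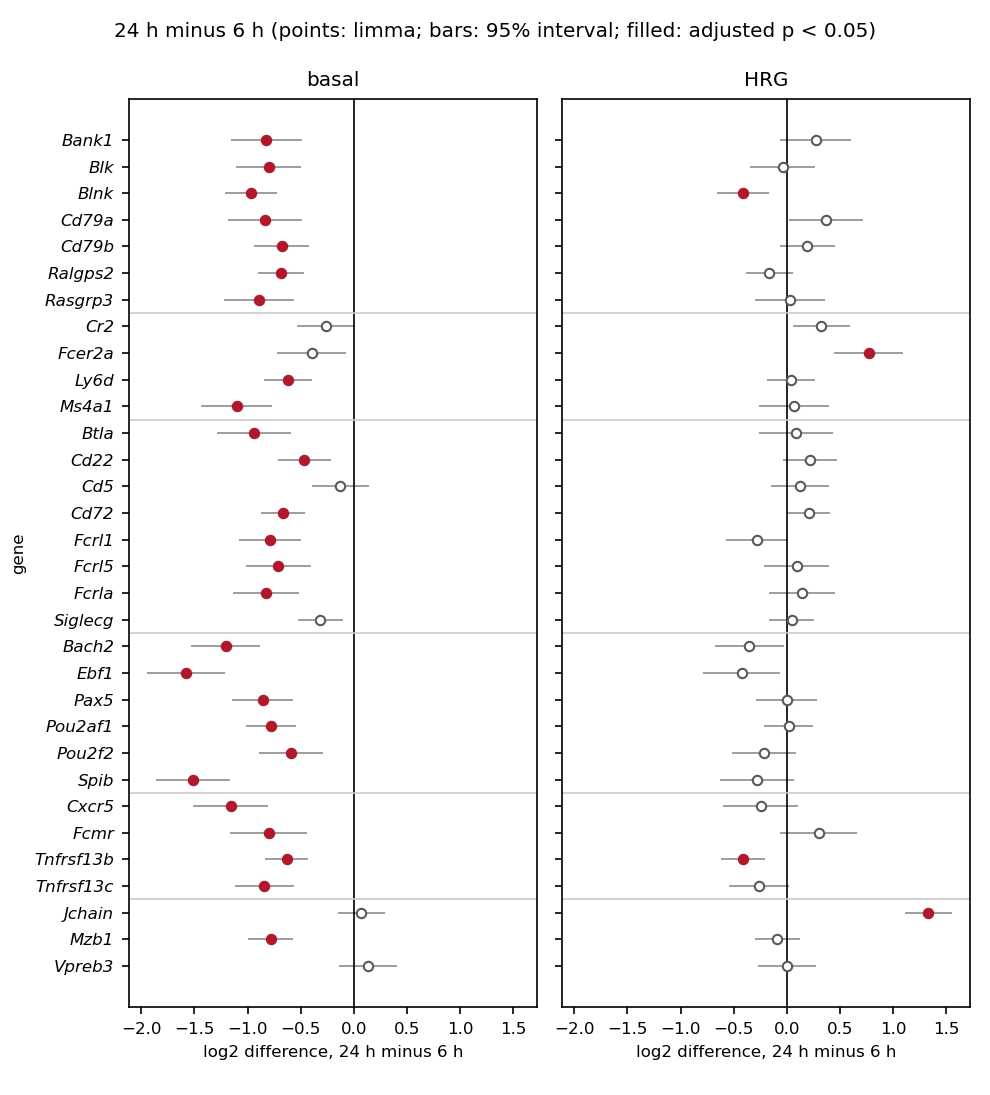
Log2 difference between 24 h and 6 h for each of the 32 genes, in basal samples (left) and HRG samples (right), with 95% intervals of the limma fit and filled points for genes past an adjusted p of 0.05. In the left panel 26 points are filled and all of them are below 0; in the right panel 4 are filled, Jchain and Fcer2a above 0 and Blnk and Tnfrsf13b below it. Jchain was at background in 3 of the 4 groups, so the place of its points is not a measured size.

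The comparison of HRG with basal at 24 h set treated against untreated cells at the later time. The 12 genes that rose were Jchain, Cd72, Cd79a, Fcmr, Ms4a1, Fcrla, Spib, Ebf1, Fcer2a, Pou2af1, Cd22 and Ly6d, with differences from 0.42 ± 0.10 for Ly6d to 1.11 ± 0.093 for Cd72 when Jchain, at background in Basal 24h, is set aside. Over the 32 genes the median was 0.47, against -0.019 over all genes, and 30 were above 0. Without Jchain the median was 0.46. Both HRG samples lay above both basal ones for 27 of the 32 genes, against 19.1% of all genes, and below both for Vpreb3 alone (21.1% of all genes). Of the 12 genes, 10 were among those that fell over time without HRG, and the exceptions were Jchain and Fcer2a. That comparison shares the Basal 24h samples with this one. The count rested on single arrays: 2 genes, Cd72 and Jchain, rose without HRG 24h replicate 1, and 3, with Cd79a beside them, without Basal 24h replicate 2. The median was 0.33 without HRG 24h replicate 1.

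At 6 h most of the 32 genes were lower with HRG by less than the test could call. The differences ran from -0.59 ± 0.16 for Btla to 0.24 ± 0.093 for Cd72, with a median of -0.27 against 0.019 over all genes. Both HRG samples lay below both basal ones for 26 of the 32 genes, against 18.3% of all genes, and above both for Cd72 (20.0% of all genes). The T and NK cell markers described below had a like median at 6 h (-0.28). The call of Cd79b was lost on leaving out any array other than Basal 24h replicate 1 and Basal 24h replicate 2.

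**Figure D3:**
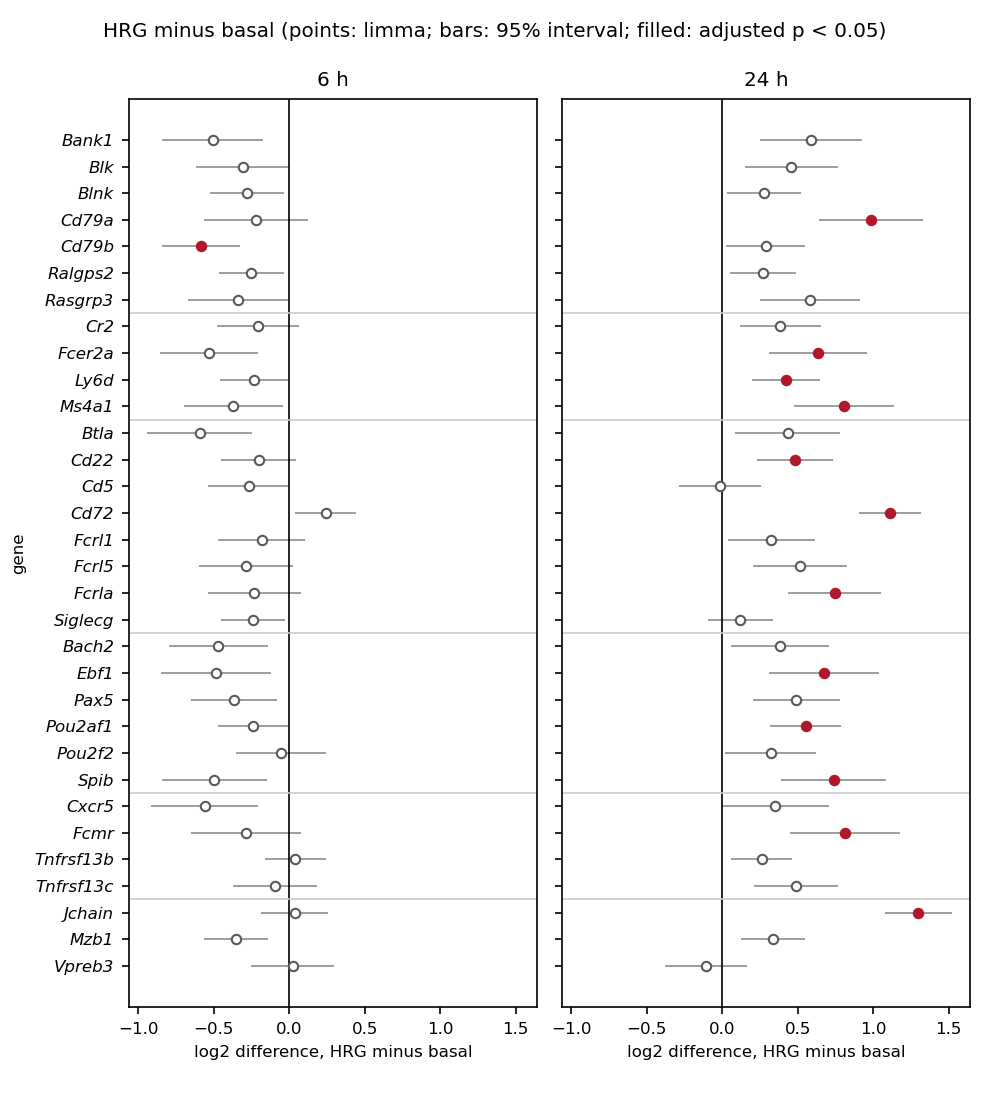
Log2 difference between HRG and basal samples for each of the 32 genes at 6 h (left) and 24 h (right), with 95% intervals of the limma fit and filled points for genes past an adjusted p of 0.05. At 6 h Cd79b is filled and 28 points are below 0; at 24 h 12 points are filled and 30 are above 0. Jchain was at background in 3 of the 4 groups, and its points are no measured size.

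The difference of the HRG effects, which equals the difference of the changes over time with and without HRG, was tested directly. It was above 0 for 31 of the 32 genes, with a median of 0.83 against -0.031 over all genes, and 16 were called. Jchain was called (adjusted p = 0.0031), but it was at background in 3 of the 4 groups, so its fitted value is no measured size. Of the other 31 genes, with a median of 0.80, Spib (1.24 ± 0.23, adjusted p = 0.023), Cd79a (1.20 ± 0.22, adjusted p = 0.025) and Ms4a1 (1.17 ± 0.21, adjusted p = 0.022) had the largest values. The count was 7 without Basal 6h replicate 1, 3 without Basal 24h replicate 2 or HRG 6h replicate 1, 2 without HRG 6h replicate 2 or HRG 24h replicate 1, and 10 without HRG 24h replicate 2. Cd72 and Jchain were called in each of these 6 fits.

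At 24 h the replicates of a group differed in the same direction for most of the B cell genes. In HRG 24h, replicate 1 was above replicate 2 in 30 of the 32 genes and in all 22 genes taken as B cell genes alone, with a median gap of 0.21, while 48.7% of all genes were higher in replicate 1. In Basal 24h, replicate 1 was the higher in 23 of the 32, with a median gap of 0.18, against 51.7% of all genes. At 6 h, replicate 1 was the higher in 18 of 32 untreated and 15 of 32 HRG pairs, with median gaps of 0.051 and -0.013. The 32 genes share their samples and are not replicates of a condition.

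Other genes of the receptor pathway, many of which macrophages use too, moved in both directions or did not pass. Of 24 listed, 20 were measured and all 20 were above background on all arrays. These include Syk, Btk, Plcg2 and the phosphatase Ptpn6. Counts in this list and those that follow are to be read beside the shares over all genes. Over time 5.48% fell and 3.80% rose without HRG, and 2.87% fell and 4.41% rose with HRG. Against basal, 2.43% rose and 1.05% fell with HRG at 24 h, and 0.431% rose and 0.818% fell at 6 h. Without HRG 5 of the 20 fell over time and 1 rose, with Cd40, a receptor for T cell help, at -1.59 ± 0.13, Malt1, a protease of NF-κB signalling, at -0.83 ± 0.10 and Cd81, a tetraspanin, at 0.59 ± 0.10. With HRG, 3 fell over time and 2 rose. For HRG against basal at 24 h, Ptpn6 rose (0.37 ± 0.091) and the kinase Prkcb fell (-0.55 ± 0.13), and at 6 h Cd40 fell (-0.71 ± 0.13). The pathway medians were -0.058, -0.059, 0.11 and -0.012 for untreated time, time with HRG, HRG at 24 h and HRG at 6 h. Of immunoglobulin genes measured through a row of their own, 5 of 11 fell over time without HRG and 4 of 11 rose with HRG at 24 h, with Igkv4-91, a light chain variable segment, at 1.69 ± 0.17, adjusted p = 0.00020. Antibody segments are close copies of each other, so the row may read several of them.

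Markers of other cells moved with the B cell genes in part. Of 10 mast cell markers, 9 were above background on all arrays and Ms4a2 on none. Over time without HRG 5 of 10 fell, against 5.48% of all genes. With HRG at 24 h 5 of 10 rose, against 2.43% of all genes. Among them were Cpa3, a mast cell protease (0.97 ± 0.18), and the transcription factor Gata2 (0.81 ± 0.11). The summed linear level of the mast cell list was 9897 and 10503 in Basal 6h, 9072 and 9777 in HRG 6h, 6399 and 8004 in Basal 24h and 9114 and 11253 in HRG 24h, given from low to high. The summed level of the 32 B cell genes was 17204 and 17918, 14786 and 14853, 9683 and 10513 and 13790 and 15718 in that order, a sum in which the brightest rows weigh most. Replicates were ordered alike in both lists with HRG at 24 h, where replicate 1 was higher in 10 of 10 mast cell markers, and unlike in Basal 24h, where it was higher in 0 of 10.

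Of 27 measured T and NK cell markers, 15 were above background on all arrays and 9 on none, Cd3d and the NK receptor Ncr1 among the latter. Cd3e, a chain of the T cell receptor complex, rose over time with HRG (0.83 ± 0.17), as did 4 others, against 4.41% of all genes. The largest difference of the list over time with HRG was 1.07 for Cd3g, a further such chain. At 6 h with HRG, 2 of 27 fell, Cd3g (-1.11 ± 0.21) and the costimulatory receptor Cd28 (-0.60 ± 0.11), against 0.818% of all genes. The T and NK cell median at 6 h was -0.28, close to the -0.27 of the B cell genes. Both HRG samples lay below both basal ones for 18 of 27, beside 26 of 32 B cell genes and 18.3% of all genes. Over time without HRG 2 of 27 fell, the adhesion receptor Cd2 (-1.06 ± 0.18) and the cytokine receptor Il7r (-0.50 ± 0.10), and 0 rose. Over all genes, 5.48% fell there and 3.80% rose. The T and NK cell median there was 0.003, where that of the B cell genes was -0.79. For HRG at 24 h 0 of 27 were called by limma, and the median was 0.013 beside 0.47. An unadjusted limma p under 0.05 was reached there by 3 of 27, beside 2531 of all 19938 genes. The summed T and NK cell level was 6774 and 7217 in Basal 6h, 5150 and 5288 in HRG 6h, 5257 and 6115 in Basal 24h and 5775 and 6206 in HRG 24h. Of 12 macrophage markers, 3 rose with HRG at 24 h, the Fc receptor Fcgr1 (1.13 ± 0.16), the phosphatidylserine receptor Timd4 (0.74 ± 0.11) and the kinase Mertk (0.51 ± 0.10). Over time without HRG 3 of the 12 fell, Fcgr1 (-0.64 ± 0.16), Timd4 (-0.52 ± 0.11) and the factor Gata6 (-0.50 ± 0.10), and 2 rose, Mertk (0.83 ± 0.10) and Cd14 (0.42 ± 0.11). The summed level of the 12 was 60014 and 62610, 62211 and 65528, 65402 and 66062 and 74035 and 74281 in the same order of groups. Of 6 plasma cell markers outside the 32 genes, 2 fell over time without HRG. Irf4, a transcription factor of plasma cells and activated B cells that macrophages also make, fell by 1.46 ± 0.12 without HRG and by 0.58 ± 0.12 with it. Its HRG effect differed between the times by 0.89 ± 0.18, adjusted p = 0.031. Sdc1, which encodes syndecan-1, rose with HRG at 24 h (0.48 ± 0.11) and fell over time both without HRG (-0.81 ± 0.11) and with it (-0.69 ± 0.11). Tnfrsf17, the plasma cell receptor BCMA, was at background on all arrays. Of 11 dendritic cell markers, 4 were above background on all arrays and 0 were called by limma for HRG against basal at 24 h. An unadjusted limma p under 0.05 was reached there by 3 of 11, beside 2531 of all 19938 genes. Without HRG 4 fell over time, with the chemokine receptor Ccr7 at -1.16 ± 0.11, and 1 rose. Of 11 neutrophil and eosinophil markers, 8 were above background on no array and 0 were called in any of the 5 comparisons by limma. An unadjusted limma p under 0.05 was reached by 0 to 2 of 11 in each, beside 2194 to 4061 of all 19938 genes. Of 7 mesothelial markers, Gpm6a, a membrane glycoprotein, rose with HRG at 24 h (0.59 ± 0.10) and was the gene of that list that was called. The difference of the HRG effects was above 0 and called for 4 of 10 mast cell markers (median 0.69), 3 of 11 immunoglobulin genes (median 0.67), 1 of 27 T and NK cell markers (Cd3g at 1.48 ± 0.30, median 0.33), 1 of 12 macrophage markers (Timd4 at 0.74 ± 0.16), 2 of 11 dendritic cell markers, 1 of 6 plasma cell markers and 1 of 7 mesothelial markers. It was called for 0 of 20 receptor pathway genes by limma, with 4 at an unadjusted p under 0.05 (2197 of all 19938 genes). Over all genes it was above 0 and called for 1.02%. The part of other cell types in the changes of the B cell genes was not tested.

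**Figure D4:**
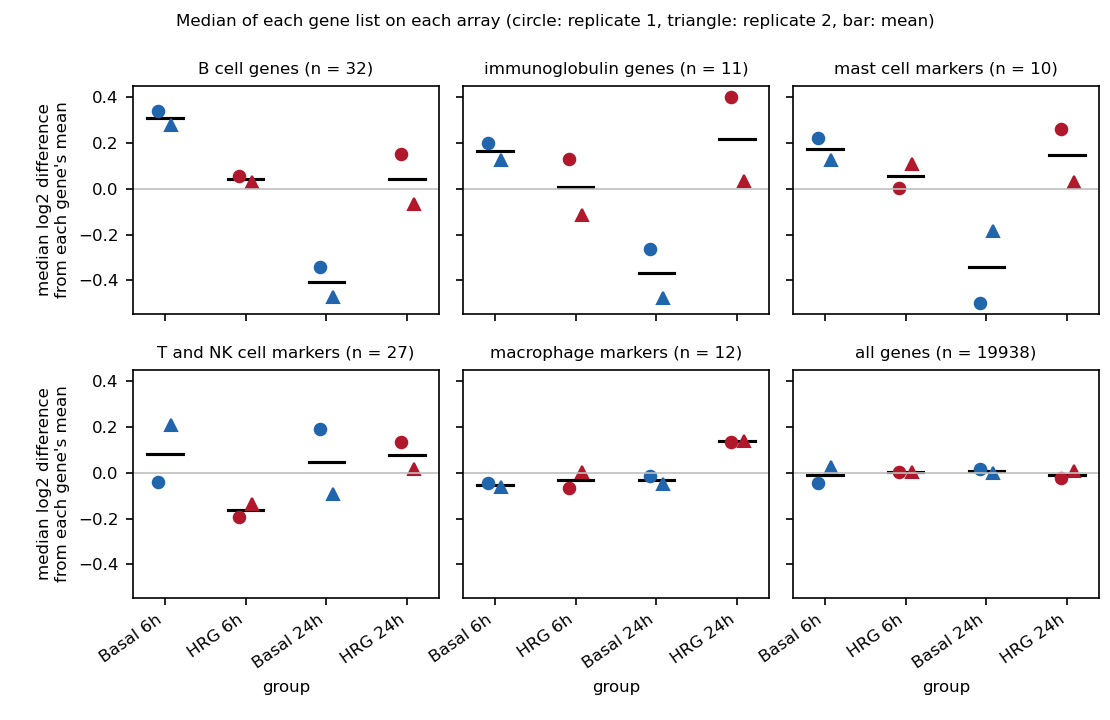
Median over each gene list of the log2 difference from each gene's mean over 8 arrays, for each array (circles replicate 1, triangles replicate 2, bars the mean of both, blue basal, red HRG). The B cell, immunoglobulin and mast cell lists are lowest in Basal 24h, the T and NK cell list is lowest in HRG 6h, and all genes lie near 0 on every array.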

How the data were processed

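Total RNA of 8 samples was labelled and hybridised to Affymetrix arrays, 1 per sample. The authors deposited log2 values; the submitters' processing notes list Affymetrix Expression Console, RMA (background correction, normalization between arrays and a summary of each row's probes) and limma, with no version, scan batch or genome build. Of 28853 rows, 21789 had a single symbol in the annotation, 1621 more than 1 and 5443 no symbol. For each of 19938 genes its brightest row by mean was kept.

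All 8 arrays entered a limma 3.58.1 fit (R 4.3.3) with a mean for each group, which left 4 residual and 7.81 prior degrees of freedom. Tests were two-sided and adjusted over all genes within each of 5 comparisons. Errors beside differences are standard errors with 2 arrays a group, and this number limits precision. The fit was tested on simulated data. The members and lists were chosen with earlier results of these data known, so no list was given a test. Members were given array by array where they passed in any comparison, were among the 3 brightest of their role or were Cd79a, Cd79b, Ms4a1, Cd22 or Pax5. Of other lists, counts and up to 3 of the largest changes that passed are named. Lists for dendritic, mesothelial, plasma and mast cells, T and NK cells, macrophages, neutrophils with eosinophils, and the receptor pathway were examined. Alternatives were the replicate number as a block, trended and robust eBayes, renewed quantile normalization, centred arrays, a covariate for array lower quartiles, no genes among the dimmest 30%, the mean of a gene's rows, all rows tested, separate fits of 4 arrays, and the removal of single arrays.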

Additional observations from a re-analysis of the deposited data

Results flagged for a closer look

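For 16 of the 32 B cell genes the HRG effect itself differed between 24 h and 6 h by the limma interaction term, the effect at 24 h being the higher. Over all genes, this term was above 0 and called for 1.02% and below 0 and called for 0.451%. On the log2 scale the differences of the effects were, in order of size, Spib (1.24), Cd79a (1.20), Ms4a1 (1.17), Fcer2a (1.17), Ebf1 (1.16), Fcmr (1.10), Bank1 (1.10), Btla (1.03), Fcrla (0.97), Cd79b (0.87), Cd72 (0.87), Pax5 (0.86), Pou2af1 (0.79), Mzb1 (0.69) and Ly6d (0.66). For Jchain the fitted value was 1.26, but its row was at background in 3 of the 4 groups, so it is no measured size and has no rank here. Fcer2a was above background on 6 of 8 arrays and Btla on 7 of 8, so background may limit the sizes given for them. The adjusted p lay between 0.0031 for Jchain and 0.0497 for Ly6d. The same term was called for 4 of 10 mast cell markers, 3 of 11 immunoglobulin genes and 1 of 27 T and NK cell markers. The 16 B cell genes were measured on the same samples and share the replicate gaps described above. The count of 16 rested on single arrays, as given above. On leaving out single arrays, the median over the 32 genes ran from 0.66 to 0.92. In groups of 2 arrays, no test for a single outlying array was made.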

How the results depend on the processing

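Median differences kept their side of 0 in all alternatives except the time course with HRG (0.035), which ran from -0.090 to 0.12 on leaving out single arrays. Counts of calls moved by more than 1.5 times outside the left-out arrays in few cases. At 6 h, where 1 gene fell with HRG, 3 fell with the replicate block and 0 with renewed quantile normalization. In the time course with HRG, where 2 fell, 1 fell with the replicate block and 1 with arrays centred on their medians, and where 2 rose, 1 rose with the dimmest 30% of genes left out, a filter that removes Jchain. Without single arrays, the ranges were 2 to 15 genes that rose at 24 h with HRG (median 0.33 to 0.61), 0 to 1 that fell at 6 h (median -0.30 to -0.25), 2 to 21 called for the difference of the effects (median 0.66 to 0.92), 22 to 26 that fell over time without HRG (median -0.84 to -0.68), and 1 to 2 that rose and 0 to 2 that fell over time with HRG.

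Samples sharing a replicate number did not deviate together in all groups: over all genes the correlations of their deviations between groups ran from -0.33 to 0.41. Those among Basal 6h, HRG 6h and HRG 24h were above 0 (0.27, 0.41 and 0.24), and 3 of 6, those with Basal 24h, were below 0. The number was therefore not taken as a pairing. With the number as a block, 16 genes rose at 24 h with HRG, 18 were called for the difference of the effects and 27 fell over time without HRG. The 12 genes that rose at 24 h with HRG were all among the 16. Genes near background, such as Jchain and Cr2, are limited in the size of a change that the array can show.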
